A study of Mus musculus with 6 samples.

Results

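The cytosolic ribosomal protein genes were taken as every probe set whose single platform gene symbol is Rpl, Rps or Rplp followed by a number, with at most a letter and a further number behind it, leaving out the Rps6k kinases. This gave 98 probe sets of 47 genes, out of 22626 probe sets without controls and 12393 genes that had a probe set with a single symbol. RefSeq lists 83 protein-coding genes of this form, of which 46 are members and 27 more are named only on probe sets that carry several symbols, and 10 were not analysed here. The large subunit had 26 of the genes on 46 probe sets and the small subunit had 21 genes on 52 probe sets. RNA came from the proximal part of the colon of 6 mice, 3 wild-type and 3 heterozygous for a gene trap in Mthfd1, a folate-metabolising enzyme, and each mouse had its own array. All mice were 8 weeks old and had been on the AIN-93G control diet for 5 weeks from weaning. The trapped mice came from the BayGenomics collection, which is built from embryonic stem cell clones, and still carry 1 intact copy of the gene. Every array holds whole colon tissue, so fewer cells of a type and less RNA per cell cannot be told apart.

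Ribosomal proteins surround the ribosomal RNA of the small and the large subunit, and a cell needs them in near equal amounts. Their mRNAs are among the most abundant of dividing epithelium, such as that of the intestinal crypt. They share a C at the first transcribed base followed by a run of pyrimidines, the 5′ terminal oligopyrimidine (TOP) tract, through which the growth-sensing kinase mTOR and the protein Larp1 control their translation. Most of these genes have processed pseudogenes with nearly the same sequence, so a probe may match more than its own gene.

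The start of the transcript is shown for members whose annotated start lies on such a tract, because this shared feature took no part in the choice of the genes. RefSeq promoter windows of 300 bases (250 before and 50 after the start, build GRCm38.p6) were found for 41 of the 47 members, 49 windows in all. A tract of a C and at least 4 further pyrimidines began exactly at the start in 8 of the 49 windows (16.3%), against 823 of 32851 windows of all genes (2.51%). The 40 bases around these starts follow, 20 on each side, 5′ to 3′ on the strand of the gene, with the tract in capitals.
Rpl14, chr9:120571497-120571536, plus strand: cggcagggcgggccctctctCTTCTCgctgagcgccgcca
Rpl35, chr2:39005112-39005151, minus strand: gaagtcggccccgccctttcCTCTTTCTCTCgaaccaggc
Rpl38, chr11:114668560-114668599, plus strand: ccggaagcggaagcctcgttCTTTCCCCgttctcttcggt
Rplp2, chr7:141447631-141447670, plus strand: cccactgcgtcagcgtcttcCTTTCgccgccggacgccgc
Rps6, chr4:86857348-86857387, minus strand: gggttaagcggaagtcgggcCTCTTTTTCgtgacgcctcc
Rps10, chr17:27635225-27635264, minus strand: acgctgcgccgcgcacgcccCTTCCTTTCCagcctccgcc
Rps18, chr17:33955646-33955685, minus strand: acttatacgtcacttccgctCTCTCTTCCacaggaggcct
Rps27, chr3:90213629-90213668, minus strand: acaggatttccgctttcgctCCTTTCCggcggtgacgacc

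The tract was 5 bases long in Rplp2 and 11 in Rpl35. Annotated starts can lie a few bases off the true start, and within 10 bases of it a tract was found in 28 of the 49 member windows (57.1%) and in 30.7% of all windows. The letters CCGGAAG, a core of ETS-family binding sites, stood on either strand in 20 member windows (40.8%) and in 8.86% of all windows. AAGATGG, found in YY1 sites, stood in 7 member windows (14.3%) against 6.34% of all. TATAAA stood in 6 member windows (12.2%) against 13.6% of all. These are matches of letters, counted by window, and no overlap between the motifs was removed.

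Most member windows had no tract exactly at the annotated start. Among them were the window of Rps4x, the gene with the smallest p in the genotype comparison, and those of 3 paralogs. Within 10 bases of the start, the windows shown of the 3 paralogs did hold a tract and that of Rps4x did not.
Rps4x, chrX:102189372-102189411, minus strand: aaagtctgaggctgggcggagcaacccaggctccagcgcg
Rpl22l1, chr3:28805488-28805527, plus strand: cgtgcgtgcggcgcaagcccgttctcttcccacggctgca
Rpl39l, chr16:10170208-10170247, plus strand: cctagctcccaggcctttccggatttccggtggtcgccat
Rpl3l, chr17:24727806-24727845, plus strand: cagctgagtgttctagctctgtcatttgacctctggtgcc

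The genotype labels were borne out by Mthfd1 itself, whose 3 probe sets each read lower on every heterozygous array than on every wild-type array. The dimmest of the 3, at a mean of 44.5, was left out of testing for its low signal. The brightest probe set of Mthfd1 gave 890 ± 56.1 (SD, n = 3) in wild-type and 504 ± 48.4 (n = 3) in heterozygous mice, a log2 fold change of -0.80 (limma adjusted p = 0.121). Signals are the deposited linear intensities, and the mean of each array without its top and bottom 2% was 500, so a shift common to all RNA is not measurable. The ratio of 3′ to 5′ control probe sets ran from 0.655 to 0.727 for Gapdh and from 1.44 to 1.61 for Actb over the 6 arrays.

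Most of the ribosomal protein genes were near the top of the signal range in the proximal colon. The probe set with the highest mean signal stands for each gene. On this measure 34 of the 47 genes had a mean signal over 5000, ranging from 5397.8 to 16816, and 32 lay above the 98th percentile of all probe sets, which was 6095. The median of the 47 genes was 10497 and the median of all probe sets was 164. Of the 100 brightest probe sets on the array, 15 were members and a further 24 were probe sets that carry several gene symbols, at least 1 of them ribosomal. Signal depends on the probes as well as on the RNA, so the order of genes by signal is an order of probe sets and not of transcript abundance.

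The highest signals belonged to Rps3a1, Rpl38, Rpl41, Rps28, Rps29 and Rpl7a. Rps3a1, a small-subunit protein, read 17127, 16198 and 16754 on the wild-type arrays and 18068, 17032 and 15720 on the heterozygous arrays. Rpl38, a large-subunit protein known for its part in translating Hox mRNAs in the embryo, read 17077, 15658 and 16937 in wild-type and 17127, 16174 and 16252 in heterozygous mice. The values of the genotypes overlapped in both genes. Rpl41, the smallest ribosomal protein, read 15987, 14708 and 15880 against 15802, 15500 and 17285. Rps28 read 15084, 16130 and 15156 against 16207, 16525 and 15260. Rps29, a small zinc-binding protein, read 15266, 14865 and 15241 against 15127, 15345 and 15601. In these 3 genes too the groups overlapped, and the lowest and highest array of Rps29 differed by 1.05-fold. The same was true of Rpl7a, a large-subunit protein that binds ribosomal RNA, with 14768, 14122 and 14434 in wild-type and 14896, 14875 and 14532 in heterozygous mice.

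**Figure D1:**
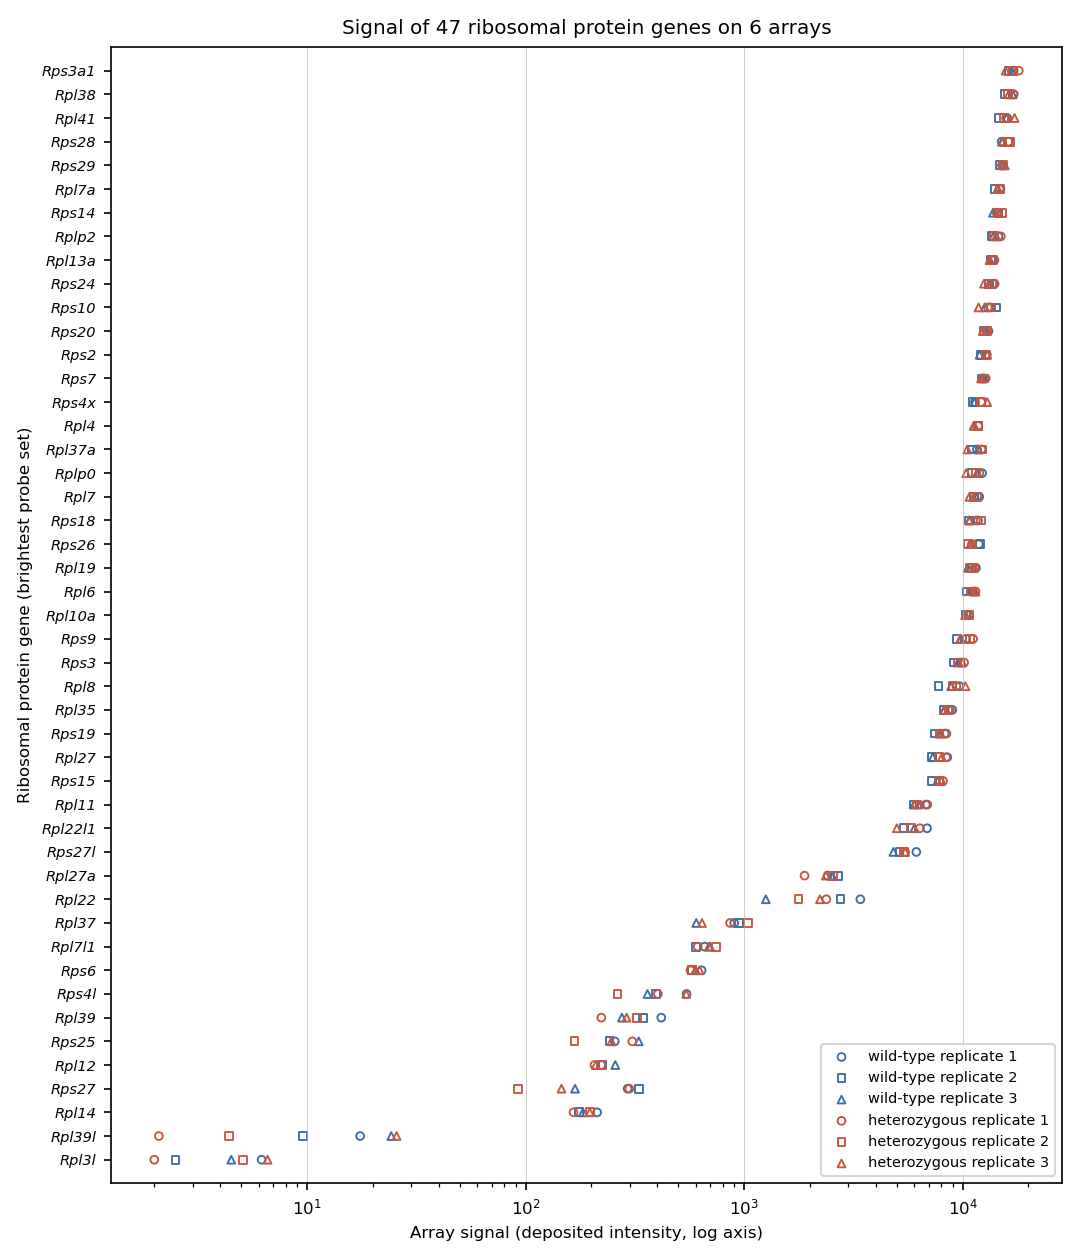
Array signal (deposited intensity, log axis) of the 47 ribosomal protein genes, each by its brightest probe set, on the 3 wild-type (blue) and 3 heterozygous (red) arrays, with the shape of the point giving the replicate number. For 34 genes all points sit close together at a mean over 5000, while Rpl3l and Rpl39l are at means of 4.48 and 13.9.

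The other 13 genes had a mean signal under 5000. Rpl27a and Rpl22 were between 1000 and 5000, at 2407 and 2300, and 11 genes were under 1000. For 8 of the 13 (Rpl12, Rpl14, Rpl27a, Rpl37, Rpl39, Rps6, Rps25 and Rps27) the array also holds probe sets that share their symbol with other genes, and the brightest of these had a mean between 6627 (Rpl14) and 17665 (Rps6). The low values of these 8 genes are those of their single-symbol probe sets and cannot be taken as the level of the gene. Which of the probe sets reads the gene was not tested. The remaining 5 (Rpl22, Rpl3l, Rpl39l, Rpl7l1 and Rps4l) had no such probe set. Rpl3l, known as the striated muscle form of Rpl3, read 6.2, 2.5 and 4.5 in wild-type and 2, 5.1 and 6.6 in heterozygous mice. Rpl39l, known as a testis-enriched form of Rpl39, read 17.5, 9.6 and 24.3 against 2.1, 4.4 and 25.7. These 2 paralogs had the lowest signals of all members, and neither passed the filter on low signal.

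Probe sets of the same gene often disagreed in level. Of the 47 genes, 25 had a single probe set and 22 had several, up to 6 for Rpl35, Rps10, Rps18 and Rps24. The highest probe set mean exceeded the lowest by more than 10-fold in 12 of the 22 genes and by less than 2-fold in 8, but many of the low ones failed the filter on low signal, where a value cannot be told from background. Among probe sets that passed it, 19 genes had at least 2, of which 6 spanned more than 10-fold and 11 less than 2-fold. The 6 were Rpl41 (110-fold), Rps9 (67.1), Rps24 (55.7), Rps10 (27.8), Rpl37a (19.4) and Rpl13a (13.4). The 3 probe sets of Rps18, a small-subunit protein, that passed had means of 10041, 10467 and 11261, within 1.12-fold of each other, while its 3 others had means of 31.4, 16.1 and 15.9. The 2 probe sets of Rps4x had means of 11848 and 13.2, and the latter did not pass. The probe sets of Rps14, Rps15, Rps27l, Rps28 and Rps29 all passed and agreed within 1.25-fold.

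Level went with the class of probe set, which the array maker gives as a suffix. The 28 probe sets with the plain suffix _at, meant to match 1 transcript, had a median signal of 223, and 22 were under 1000. The 28 ending in _a_at, meant to match several transcripts of the same gene, had a median of 9996, and 25 were over 5000. The 40 ending in _x_at, in which some probes also match other sequences, had a median of 8636, and 28 were over 5000. Whether the dim probe sets lie outside the main transcript, or the bright ones take up RNA of related sequences, was not tested.

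**Figure D2:**
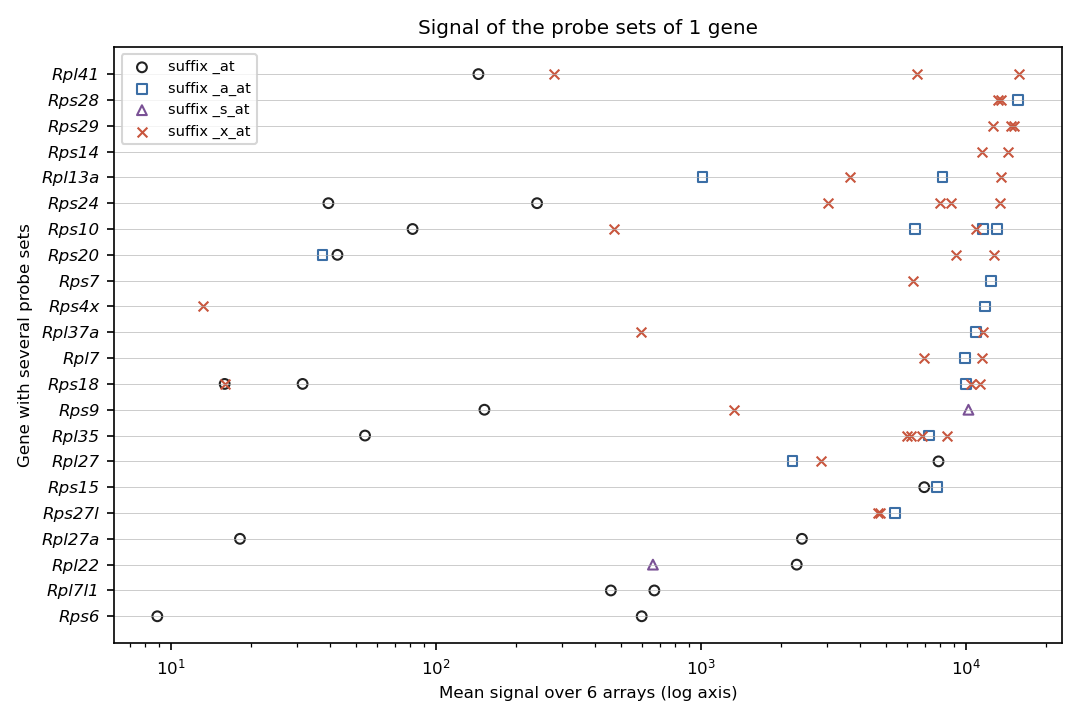
Mean signal over 6 arrays (log axis) of every probe set of the 22 ribosomal protein genes that have several, with the suffix of the probe set as the shape of the point. Rps4x and Rps18 have probe sets over 10000 and others under 100 that failed the filter on low signal, while those of Rps28 and Rps29 all lie together over 10000.

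The comparison of heterozygous with wild-type mice asked whether losing 1 copy of Mthfd1 went with a shift in the ribosomal protein mRNAs. Differences were small: 35 of the 45 tested genes lay within 0.1 of zero on the log2 scale (77.8%, against 46.9% of all tested genes), and the median was 0.02, against 0.01 over all tested genes. The 46.9% is not that of genes of like signal. The median absolute log2 fold change was 0.11 over all tested probe sets and 0.058 over 484 non-member probe sets over 5000. For the members it was 0.057 over the 85 tested probe sets and 0.041 over the 34 genes over 5000. After the filter on low signal, 85 of the 98 probe sets and 45 of the 47 genes were tested. No member probe set passed limma with Benjamini-Hochberg adjustment at 0.05, and the smallest adjusted p was 0.873. Over all genes, 0 of 13576 probe sets passed (0%). At an unadjusted limma p under 0.05 there was 1 member of 85, higher in heterozygous mice, where 5.69% of all probe sets were past that level (3.12% higher and 2.56% lower) and 5.41% of all tested genes. Under 8 of the alternative fits tried over all arrays that count was 0 or 2, as given in the section on processing. Fold changes are on the log2(signal + 16) scale, which understates those of dim genes.

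By sign, 28 of the 45 genes were higher and 17 lower in heterozygous mice (62.2% higher, against 51.6% of all tested genes). This split moved with the scaling: 20 genes were higher after quantile normalization between arrays and 30 after median centring. It also moved with single arrays, to 36 higher without wild-type replicate 1 and to 34 without heterozygous replicate 3, and was as low as 24 without wild-type replicate 3 or heterozygous replicate 1. The large subunit had 15 of 24 tested genes higher and the small subunit 13 of 21, each with a median of 0.02. Among the 34 genes over 5000, 26 were higher and 8 lower, and their fold changes ran from -0.09 to 0.14. The 95% intervals of these 34 lay within -0.35 and 0.34, and 33 of them held 0. The 9 tested genes under 1000 had 2 higher and 7 lower, with a median of -0.13 and a range from -0.61 to 0.06.

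**Figure D3:**
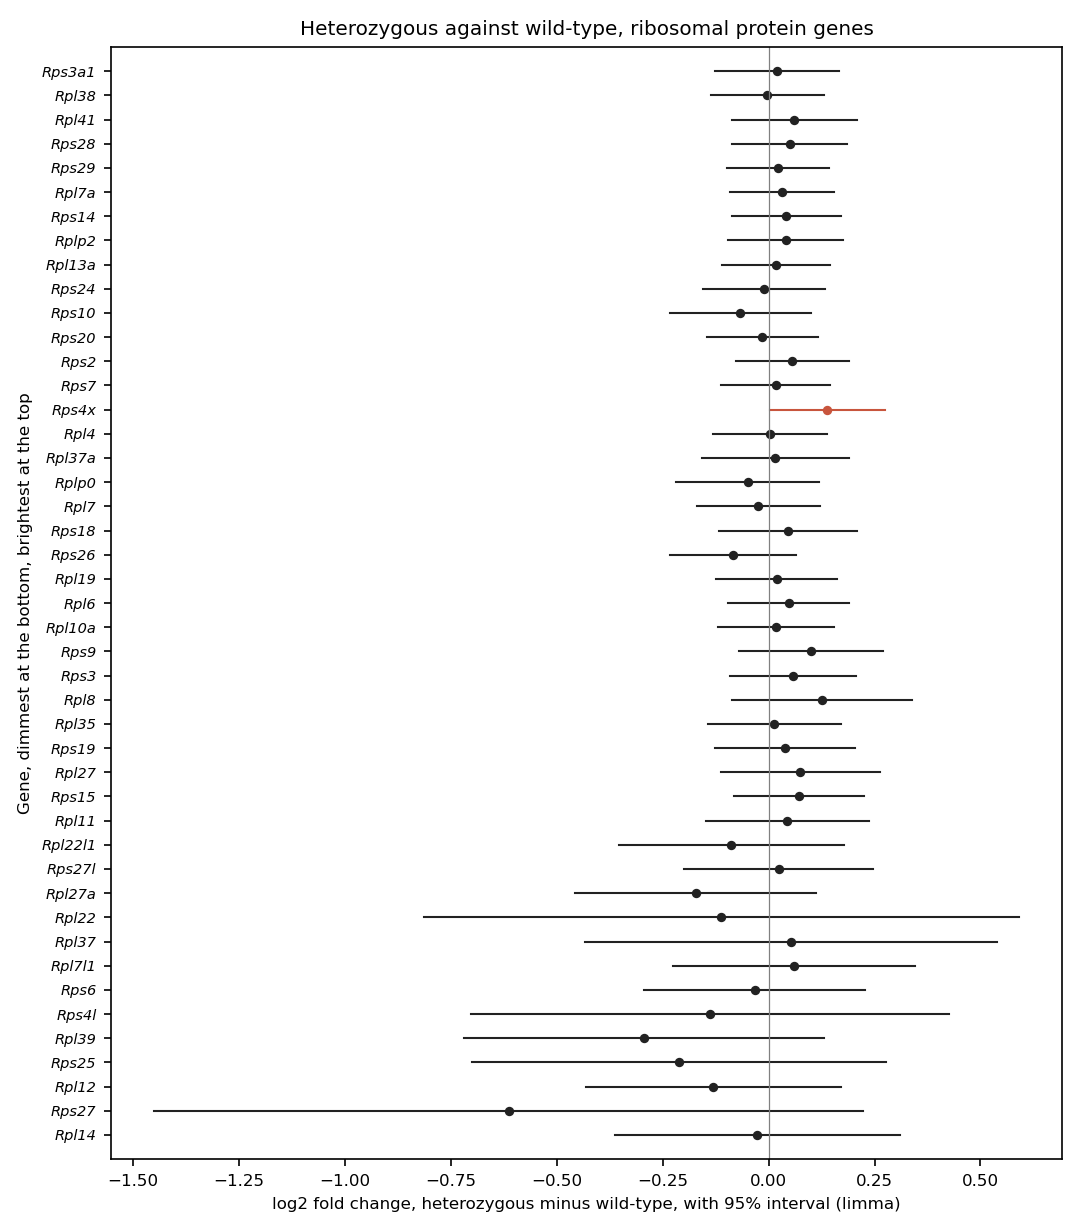
Log2 fold change (heterozygous minus wild-type) of the 45 tested ribosomal protein genes with the 95% interval from limma, ordered by signal with the brightest at the top. The bright genes lie close to 0 with narrow intervals, the dim ones at the bottom have wide intervals, and Rps4x (red) is the gene whose groups do not overlap.

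Rps4x was the gene whose arrays separated by genotype. It encodes an RNA-binding protein of the small subunit and lies on the X chromosome. Its bright probe set read 11392, 11099 and 11341 on the wild-type arrays and 12159, 12137 and 12963 on the heterozygous arrays. All 3 heterozygous values were above all 3 wild-type values, 11277 ± 156 (SD, n = 3) against 12420 ± 471 (n = 3), or 110.1% of wild-type. The log2 fold change was 0.14 (SE 0.060), with a 95% interval from 0.00252 to 0.27 and an unadjusted limma p of 0.0467. It failed the correction over all probe sets (adjusted p = 0.873), and the adjusted p ran from 0.665 to 0.9998 over the alternatives. An exact permutation test of 3 against 3 cannot go below the 0.1 it gave here. The sign held under all 19 alternatives, from 0.11 to 0.15. The other probe set of Rps4x, at a mean of 13.2, was not tested.

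The groups had no overlap in 1 of 45 genes, higher in heterozygous mice, where 10.7% of all tested genes had none (5.58% higher and 5.08% lower). They had none in 4 of 85 member probe sets, 3 higher and 1 lower, where 10.4% of all probe sets had none (5.26% higher and 5.1% lower). With the wild-type replicates 1, 2 and 3 left out in turn the count of genes was 12, 2 and 4. With the heterozygous replicates 1, 2 and 3 left out it was 3, 6 and 7. In these fits of 5 arrays, 16.5% to 23.9% of all probe sets had no overlap. Beside Rps4x, these 4 probe sets, named here after their values were seen, were a second-ranking probe set of Rps10, one of Rps15 and a dim one of Rpl41. That of Rps10 read 11436, 10989 and 11109 in wild-type and 11916, 11964 and 12029 in heterozygous mice, a log2 fold change of 0.10. The brightest probe set of Rps10 went the other way, at -0.07. The probe set of Rps15 read 6941, 6741 and 6482 against 7118, 7382 and 7140, a log2 fold change of 0.10. For Rpl41 the dim probe set read 154, 162 and 173 against 144, 135 and 101, a log2 fold change of -0.34, while its 3 other probe sets gave positive values of 0.06, 0.12 and 0.18.

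Probe sets of a gene often differed in the sign of the difference as well. Of 19 genes with at least 2 tested probe sets, 8 had a single sign throughout and 11 had both. The like share over all genes is not given here, so this is not a trait of these genes. Of the 85 tested member probe sets, 59 lay within 0.1 of 0, where a small difference turns the sign. The range of log2 fold changes within a gene was largest for Rpl41, at 0.52. It was 0.34 for Rps24, 0.30 for Rps9, 0.29 for Rpl22 and 0.23 for Rpl27. In Rps24, a small-subunit protein mutated in some cases of Diamond-Blackfan anaemia, a probe set at a mean of 3008 read 2518, 3857 and 2018 in wild-type and 3898, 3089 and 2670 in heterozygous mice, a log2 fold change of 0.24. The brightest probe set of Rps24 read 13851, 13203 and 13326 against 14012, 13588 and 12523, a log2 fold change of -0.01. None of these probe sets passed the adjusted threshold.

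By class, 22 of 27 tested _a_at probe sets, 21 of 38 _x_at and 6 of 18 _at probe sets of the members were higher in heterozygous mice, with medians of 0.04, 0.02 and -0.08. Single arrays moved with the class. Wild-type replicate 2 was the lowest of the 6 arrays in 12 of the 27 _a_at members. Heterozygous replicate 3 was the lowest in 17 of the 38 _x_at members, and also in 298 of 979 _x_at probe sets of other genes, compared with 2209 of all 13576 tested probe sets.

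Among large-subunit proteins, the smallest p values on the higher side belonged to Rpl8 and Rpl41. Rpl8, which lies near the peptidyl transferase centre, read 9682, 7763 and 8867 in wild-type and 9367, 8984 and 10298 in heterozygous mice, a log2 fold change of 0.13 (SE 0.094, limma adjusted p = 0.926). The low value of wild-type replicate 2 lay outside the range of the rest, and without that array the groups still overlapped. Rpl41 had a log2 fold change of 0.06. On the lower side were Rpl39, Rpl27a and Rpl12. Rpl39, a protein of the nascent-chain exit tunnel, read 418, 344 and 276 against 222, 324 and 290, a log2 fold change of -0.29 (SE 0.19, limma adjusted p = 0.916). Rpl27a read 2414, 2687 and 2528 against 1890, 2556 and 2365, a log2 fold change of -0.17. Rpl12, a protein at the base of the stalk, read 222, 225 and 257 against 207, 222 and 210, a log2 fold change of -0.13. In all 3 genes the values of the genotypes overlapped. All 3 are among the 8 genes that also have a brighter several-symbol probe set. Their values here are those of the single-symbol probe sets and cannot be taken as the level of the gene. Rpl27, Rpl7 and Rpl14 (also among those 8) had log2 fold changes of 0.07, -0.02 and -0.03.

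The stalk of the large subunit recruits the translation factors that hydrolyse GTP. Its base protein Rplp0 read 12273, 11054 and 11658 in wild-type and 11918, 11545 and 10377 in heterozygous mice, a log2 fold change of -0.05. The acidic stalk protein Rplp2 read 14582, 13572 and 13810 against 14958, 13951 and 14235, a log2 fold change of 0.04. Their groups overlapped.

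Among small-subunit proteins, Rps9, Rps15 and Rps2 followed Rps4x on the higher side. Rps9, which helps set decoding accuracy, read 10363, 9402 and 9835 in wild-type and 11169, 10847 and 9756 in heterozygous mice, a log2 fold change of 0.10 (SE 0.075, limma adjusted p = 0.926). Its dimmer probe sets had negative values of -0.10 and -0.20. Rps15, a protein of the head of the subunit, read 7848, 7269 and 7666 against 8133, 7792 and 8014, a log2 fold change of 0.07. Rps2 read 12902, 12162 and 11964 against 12757, 12747 and 12972, a log2 fold change of 0.06. In each of these genes at least 1 wild-type array read above a heterozygous one.

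On the lower side were Rps27, Rps25 and Rps26. Rps27 and Rps25 are read here by dim single-symbol probe sets, which cannot be taken as the level of the gene. Their several-symbol probe sets had means of 10192 (Rps27) and 9301 (Rps25). Rps27, a zinc-binding protein, read 293, 331 and 168.4 in wild-type and 298, 92.6 and 146 in heterozygous mice. Its log2 fold change of -0.61 (SE 0.37, limma adjusted p = 0.916) was the largest of the members, but the arrays of each genotype differed among themselves by more, and leaving out single arrays gave from -1.03 to -0.26. Rps25, known for its part in internal initiation, read 256, 242 and 330 against 308, 167 and 247, a log2 fold change of -0.21. Rps26 read 11864, 11991 and 10855 against 11039, 10583 and 11099, a log2 fold change of -0.08 (SE 0.066, limma adjusted p = 0.928). It was the bright small-subunit gene with the smallest p on this side, and wild-type replicate 3 read within the heterozygous range. The single-symbol probe set of Rps6, the substrate of the S6 kinases, had a log2 fold change of -0.03.

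Paralogs were compared with the gene they are named after, each on its own scale. Rpl22l1, the paralog of Rpl22, read 6873, 5384 and 6015 in wild-type and 6375, 5813 and 5000 in heterozygous mice, a log2 fold change of -0.09. Rpl22, which binds RNA and is known as a tumour suppressor in T-cell leukaemia, read 3404, 2763 and 1258 against 2378, 1772 and 2224, a log2 fold change of -0.11 with a 95% interval from -0.81 to 0.59. The low value of wild-type replicate 3 made this one of the widest ranges among the members (2.69-fold). The second probe set of Rpl22 read 562, 596 and 695 against 775, 667 and 661, a log2 fold change of 0.18. Rps27l, a target of p53, read 6139, 5139 and 4821 against 5457, 5373 and 5457, a log2 fold change of 0.02. Its other probe sets gave -0.15 and -0.01. The -0.61 of Rps27 is that of a dim single-symbol probe set, which cannot be taken as the level of that gene. Rps4l, named after Rps4x, read 545, 397 and 361 against 403, 264 and 544, a log2 fold change of -0.14. Rpl7l1, named after Rpl7, read 660, 601 and 698 against 613, 743 and 690, a log2 fold change of 0.06. Its second probe set read 463, 379 and 402 against 516, 431 and 551. There the groups overlapped, and the log2 fold change of 0.26 was the highest of the tested member probe sets. None of the paralogs separated by genotype.

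The bright ribosomal protein genes varied little between mice. Over the 34 genes with a signal over 5000, the highest array exceeded the lowest by 1.04-fold to 1.37-fold, with a median of 1.12-fold. Their SD between arrays of the same genotype had a median of 0.058 on the log2 scale. For the 11 tested genes up to 5000 it was 0.27, and over all tested probe sets it was 0.18. Spread falls with signal on this array, so the members were set beside other probe sets of like signal. Between 5000 and 10000, the median SD was 0.099 over 23 member probe sets and 0.12 over 363 others. Above 10000 it was 0.055 over 35 member probe sets and 0.076 over 121 others. These are descriptions with no test, since probe sets of a gene and genes of an array are not independent.

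**Figure D4:**
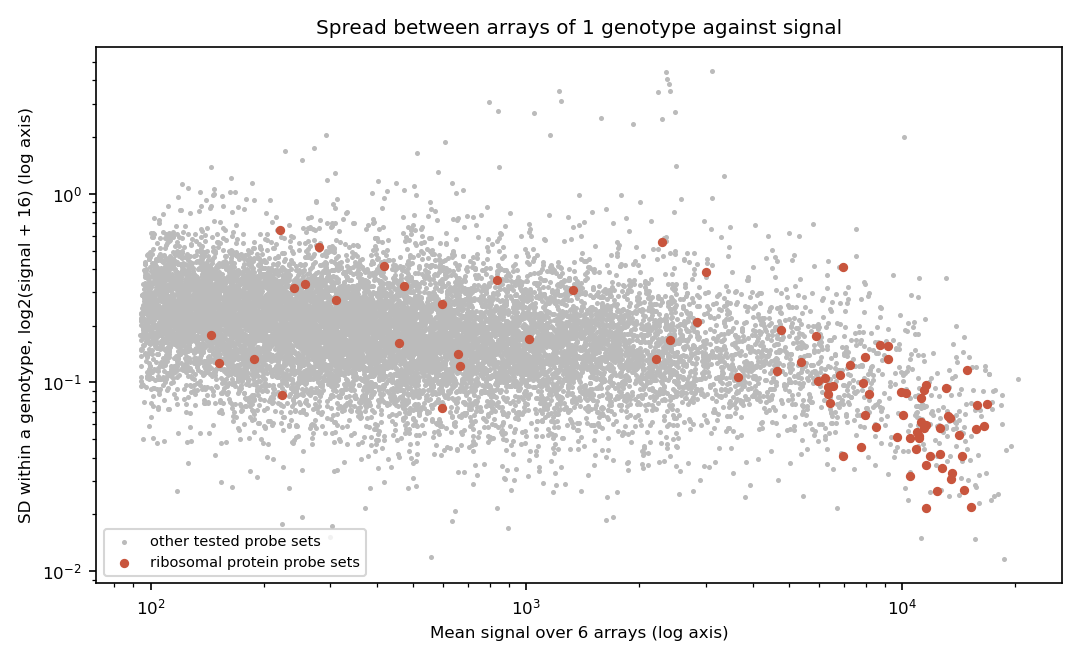
SD between arrays of the same genotype on the log2(signal + 16) scale against the mean signal over 6 arrays (both axes log) for all 13576 tested probe sets, with the 85 ribosomal protein probe sets in red. The spread falls with signal, and most of the member probe sets over 10000 lie below 0.1.

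The small differences that remained ran together across the genes and did not separate the genotypes. On each array the log2 value of every tested gene was set against that gene's mean over the 6 arrays. The median of these deviations was 0.04 on wild-type replicate 1, -0.05 on replicate 2 and -0.03 on replicate 3. It was 0.04, 0.02 and -0.02 on heterozygous replicates 1, 2 and 3. Wild-type replicate 1 was above the gene mean in 39 of 45 genes and heterozygous replicate 1 in 33, while wild-type replicates 2 and 3 were above it in 11 and 14. Of the 34 bright genes, 15 were lowest on wild-type replicate 2 and 10 on heterozygous replicate 3, and 12 were highest on heterozygous replicate 1 and 9 on wild-type replicate 1. The SD of these medians within a genotype was 0.039, larger than the median fold change of 0.02. That SD is one of single arrays and is not the standard error of a difference between group means. Over all tested probe sets the medians of the arrays stayed between -0.02 and 0.02. Over the 2263 tested probe sets above the 90th percentile of signal, members included, the medians were 0.029, -0.022 and -0.029 on the wild-type arrays and 0.016, 0.0084 and 0.0085 on the heterozygous arrays, so wild-type replicate 1 was also high and wild-type replicates 2 and 3 also low among bright probe sets in general.

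**Figure D5:**
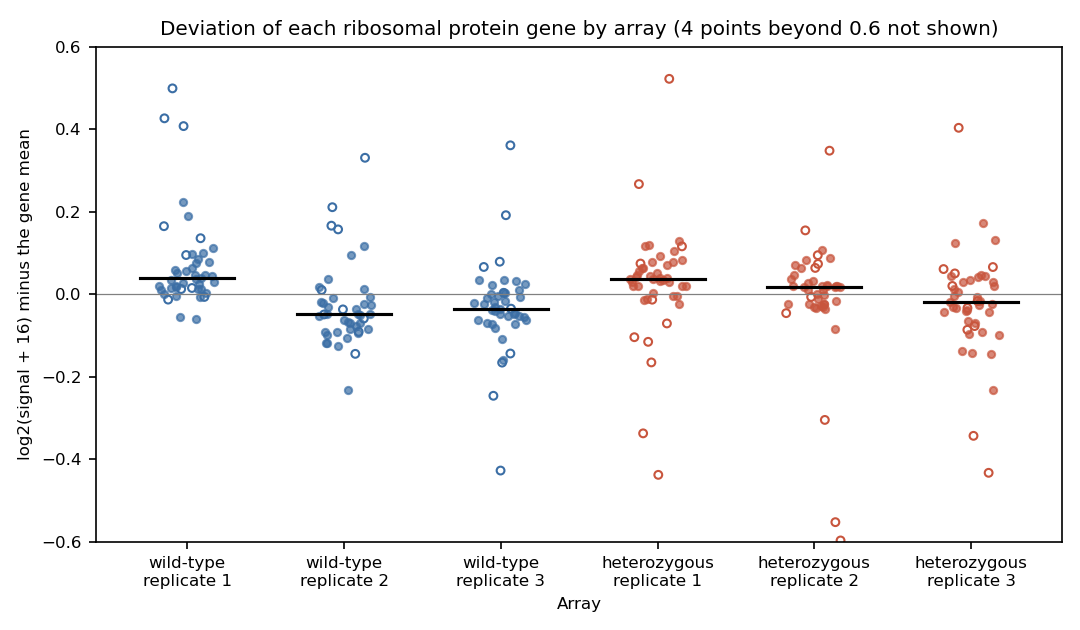
Deviation of each of the 45 tested ribosomal protein genes from its mean over 6 arrays, log2(signal + 16), by array, with genes over 5000 filled, genes up to 5000 hollow and the median as a black bar (4 points lie beyond 0.6 and are not shown). The medians of wild-type replicates 1 and 2 (0.04 and -0.05) are as far apart as any of the 6 arrays.

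The probe sets that carry several symbols, which the rule leaves out, gave a like picture in sign and by array. Of these 102 probe sets 95 were tested, and 62 were higher and 33 lower in heterozygous mice, with a median of 0.03. None passed the adjusted limma threshold, and 1 of the 95 had an unadjusted limma p under 0.05, against 5.69% of all tested probe sets. Their median deviations were 0.03, -0.04 and -0.03 on the wild-type arrays and 0.05, 0.00 and -0.02 on the heterozygous arrays. Groups did not overlap in 9 of the 95, 5 higher and 4 lower, against 10.4% of all tested probe sets and 4 of the 85 member probe sets.

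Other genes of the pathway were taken from fixed lists, and none of them passed the adjusted limma threshold. Of the 48 tested ribosome biogenesis factors, 24 were higher and 24 lower, with a median of 0.00 and none at an unadjusted p under 0.05. Gnl2, a nucleolar GTPase needed for the large subunit, had the smallest p of this list, 323 ± 32.3 (SD, n = 3) against 241 ± 78.4 (n = 3), a log2 fold change of -0.43 (limma adjusted p = 0.892). Of 12 RNA polymerase I genes, which make the ribosomal RNA, 9 were higher and 3 lower, with a median of 0.09 and none past the unadjusted level. Znrd1, a subunit of that polymerase, read 592 ± 59.7 against 690 ± 28.9, a log2 fold change of 0.22 (limma adjusted p = 0.910). Of 18 other genes of the TOP class, 14 were higher and 4 lower with a median of 0.02, the same as that of the members. Among them Fau, which encodes a small-subunit protein fused to a ubiquitin-like one, gave 0.07, Rpsa gave 0.04 and Eef1a1, the elongation factor, gave -0.01 on the log2 scale. Of 12 genes of the S6 kinases and the mTOR pathway, 3 were higher and 9 lower, with a median of -0.07. Rps6kb2, a kinase of Rps6, had a log2 fold change of -0.32, and Eif4ebp1, a translation repressor that mTOR switches off, had -0.24. Of 7 genes of the p53 response, which free ribosomal proteins can set off, 3 were higher and 4 lower, with a median of -0.01. Neither list held a gene past the unadjusted level. Groups did not overlap in 3 genes of these 5 lists, where 10.7% of all tested genes had no overlap. They were Znrd1 and Maf1 (0.16), a repressor of RNA polymerase III in the mTOR list, both higher, and the biogenesis factor Rrp1 (-0.14), which was lower.

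Markers of the tissue were read beside these values. Colonocyte markers were present, 10 of 11 found and all 10 tested, with 5 higher and 5 lower. The summed signal of 14 proliferation genes was 14349, 9332 and 9989 on the wild-type arrays and 12059, 13401 and 14643 on the heterozygous arrays. All 13 tested proliferation genes were higher in heterozygous mice (median 0.24), against 51.6% of all tested genes. An unadjusted limma p under 0.05 was reached by 3 of the 13, against 5.41% of all tested genes, and none passed the adjusted threshold. Groups did not overlap in 1 proliferation gene, against 10.7% of all tested genes. Wild-type replicate 1 was thus high, and wild-type replicates 2 and 3 low, both in the proliferation genes and in the ribosomal protein genes. Heterozygous replicate 3 had the highest summed signal of proliferation genes and, as their mean log2 deviation, 0.26 against 0.32 on wild-type replicate 1, while its ribosomal protein genes were below their mean. Of 9 macrophage and dendritic markers 8 were higher (median 0.27), and of 7 goblet markers all were lower (median -0.09), with summed signals of 4936 to 5793 and 5374 to 7182, and of 68242 to 78833 and 65270 to 66855, in wild-type and heterozygous mice. An unadjusted limma p under 0.05 was reached by 3 of the former, all higher, and 2 of the latter, against 5.41% of all tested genes. Groups did not overlap in 5 and 2 of them, against 10.7% of all tested genes. None passed the adjusted threshold. Ileal enterocyte markers summed to 8310 to 28456 on the wild-type arrays and 10260 to 24239 on the heterozygous arrays, a spread within genotype that the ribosomal protein genes did not share. The part of cell make-up in the ribosomal protein values was not tested.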

How the data were processed

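RNA of 6 mice was measured on 6 arrays. Per the labels' protocols, it was isolated with Trizol and RNeasy columns and amplified with biotin, and GCOS is named in the submitters' processing notes, with no version. The authors deposited a linear intensity for every probe set, scaled to a trimmed mean of 500, without detection columns. They entered as log2(signal + 16). A filter at the 40th percentile of the mean log2 value kept 13576 probe sets. That filter could be taken on the mean signal or the mean log2 value: both were run and the latter was chosen after their results were seen. The genotype difference was tested in R 4.3.3 by limma 3.58.1 (two-sided, eBayes with a variance trend), Benjamini-Hochberg adjustment over all tested probe sets and a threshold of 0.05, and the fit was tested on simulated data. For a gene with several probe sets the brightest was used.

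The members and the gene lists were chosen with earlier results of these data known. Genes were named by rule: the 6 highest and 6 lowest in signal, the 6 with the smallest p in each direction, the 5 widest in range, the stalk genes, the paralogs with the gene they are named after, and the 5 whose probe sets differed most. Members named outside it (Rps6, Rps10, Rps14, Rps18, Rpl13a, Rpl35, Rpl37 and Rpl37a), and Rpsa, Eef1a1, Maf1 and Rrp1, were chosen after their values were seen. The labels call the samples biological replicates, and 3 per genotype limit the precision. Alternatives covered scaling, the pseudocount, the filter, the variance model, array weights, the replicate block, each array left out, the mean over probe sets, and _x_at probe sets left out. Of the other lists, B-cell markers had 3 tested and 1 higher, smooth muscle 9 and 4, and fibroblast 6 and 3. The 1 tested exocrine pancreas marker was lower. Of 5 tested T-cell markers, 4 were higher and 1 lower. Past an unadjusted limma p of 0.05 were 3 higher and 1 lower T-cell marker, against 5.41% of all tested genes. Groups did not overlap in 2 T-cell markers and in the exocrine pancreas marker, against 10.7% of all tested genes. None of these lists held a gene past the adjusted threshold.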

Additional observations from a re-analysis of the deposited data

How the results depend on the processing

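No ribosomal protein probe set passed the adjusted limma threshold under any of the 19 alternatives, of which the filter on the mean signal was added after seeing the data. The median log2 fold change ran from -0.0055 with quantile normalization to 0.038 with an array left out, over all alternatives run for it. The SD of the members' median between single arrays of a genotype was 0.039, which is not the standard error of this difference. The count of members at an unadjusted p under 0.05, 1 as reported, was 0 with quantile normalization, without a filter, with robust variance, with the mean of a gene's probe sets and without _x_at probe sets, 2 with a pseudocount of 64, a filter at the 60th percentile or array weights, and from 0 to 4 when single arrays were left out. Of everything tested, 4.89% to 6.45% was past that level in the fits named here over all arrays, and 3.27% to 7.64% with an array left out. Genes without overlap, 1 as reported, were 5 with the mean of a gene's probe sets, 2 without _x_at probe sets, and from 2 to 12 when single arrays were left out. Of everything tested, 10.8%, 10.4% and 16.5% to 23.9% had no overlap in these fits. Mthfd1 passed the threshold with the mean of its probe sets, at -0.89 (limma adjusted p = 0.0391). The replicate numbers did not pair the arrays (correlations of deviations from -0.12 to 0.49 within a number), and with the replicate block the smallest adjusted p of a member was 0.716, with 0 called and 1 at an unadjusted p under 0.05, and the log2 fold change of Rps4x was 0.14.

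No named gene passed the adjusted threshold, but 16 turned sign under some alternative. With quantile normalization Rps27l was -0.0062 and Rps29 -0.0060. With median centring Rpl38 was 0.011 and Rps24 0.0036, and with array weights Rpl38 was 0.0013. With the mean of all probe sets Rpl22 was 0.034, Rpl27 -0.047, Rps24 0.056, Rps27l -0.047 and Rps9 -0.069. Without _x_at probe sets Rpl41 was -0.34, Rpl7 0.0098 and Rps24 0.13. With single arrays left out, Rpl14 ran from -0.079 to 0.050, Rpl22 from -0.54 to 0.18, Rpl22l1 from -0.17 to 0.0064, Rpl38 from -0.043 to 0.020, Rpl7 from -0.048 to 0.016, Rpl7l1 from -0.0020 to 0.13, Rplp0 from -0.090 to 0.0097, Rps24 from -0.045 to 0.036, Rps25 from -0.40 to 0.011, Rps27l from -0.049 to 0.12, Rps3a1 from -0.028 to 0.072 and Rps4l from -0.37 to 0.13. The cause was not tested. Dim probe sets carry the widest intervals, and without detection calls a low signal cannot be told from background.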
